A study of Mus musculus with 12 samples.

Results

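Cells of the mouse macrophage-like line RAW264.7 that had been given an antibody against CD36 and nothing else were compared with untreated RAW264.7 cells by RNA sequencing. Anti-CD36 was used at a dilution of 1 in 100, with 3 libraries of treated and 3 of untreated cells, and these are 6 of the 12 libraries of the series. The other libraries, 3 of LPS+anti-CD36 (LPS at 50 ng/ml with the same antibody dilution) and 3 of LPS alone, shared the statistical fit and served for a second look at the genes that changed. All cells carried the genotype label WT. No isotype control antibody was among the groups, and the labels gave neither a treatment time nor the clone of the antibody, so binding to CD36 and binding through the constant part of an antibody cannot be told apart. Of the 31801 entries of the gene table, 10276 reached 1 FPKM in at least 3 of the 12 libraries and were compared. FPKM is a fragment count scaled by gene length and library depth.

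CD36 is a scavenger receptor of the macrophage surface that takes up oxidised lipoproteins and long-chain fatty acids and takes part in signalling with Toll-like receptors. Lipid synthesis in these cells is under the control of the SREBP transcription factors. SCAP carries SREBP from the endoplasmic reticulum to the Golgi for cleavage when sterol is low, INSIG proteins hold SCAP back when sterol is plentiful, and the cleaved factors raise the genes of cholesterol synthesis, of lipoprotein uptake and of fatty acid synthesis and desaturation. Antibody on the surface of a macrophage can also engage the Fc gamma receptors, which signal through Fcer1g, Src family kinases and Syk.

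The 6 libraries held between 30070450 fragments (untreated replicate 2) and 54137810 fragments (untreated replicate 1), and anti-CD36 replicates 1, 2 and 3 held 37988610, 30139410 and 30459330. The macrophage label was checked with 12 markers, whose summed level was 5290 to 5729 FPKM in anti-CD36 libraries and 4164 to 5498 FPKM in untreated libraries, and none of which was at 0. Markers of other cell types were near 0 in both groups. The 6 epithelial markers were at 0 in all 6 libraries, and the sums of the B cell, neutrophil, dendritic cell, fibroblast, endothelial and erythroid lists came to at most 0.433 FPKM in any library. The T cell list summed to 2.26 to 2.83 FPKM in anti-CD36 libraries and 1.71 to 2.35 FPKM in untreated libraries, nearly all of it Lck, while the other T cell genes of the table failed the filter on low values. In cultures sequenced in bulk, fewer cells that express a gene and less RNA of it per cell cannot be told apart. Whether replicate libraries were made from separate cultures is not in the labels, so p-values measure the spread between libraries, which may be technical.

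In limma on log2(FPKM + 1), 35 of the 10276 genes (0.341%) passed an adjusted p of 0.05 between anti-CD36 and untreated cells. Of these, 15 were higher with the antibody (0.146%) and 20 lower (0.195%), and 1969 genes had an unadjusted p under 0.05. The anti-CD36 and untreated values did not overlap for any of the 35, but these were chosen by p-value, which favours such separation. The share of all genes without overlap was not counted. Where groups are said below not to overlap, this describes the values and is no test of a change. The lower genes were led by the desaturases Scd1 and Scd2 and included 6 further genes of sterol or lipid synthesis and its control, and the higher genes included 2 chemokines and the complement receptor C5ar1. With TPM scaling 11 were higher and 5 lower, and with median-of-ratios scaling 16 and 27. Single libraries weighed on the count. It was 0 higher and 1 lower without anti-CD36 replicate 3, untreated replicate 2 or untreated replicate 3, and 1 higher and 4 lower without anti-CD36 replicate 1. It was 6 higher and 12 lower without anti-CD36 replicate 2, and 12 higher and 40 lower without untreated replicate 1. The LPS and LPS+anti-CD36 libraries, which enter through the shared spread, moved it as well: leaving out LPS replicate 1 gave 61 higher and 70 lower, LPS replicate 2 gave 3 and 4, LPS+anti-CD36 replicate 1 or 2 gave 3 and 4, and LPS+anti-CD36 replicate 3 gave 4 and 4. A fit of the 6 libraries alone called no gene in either direction, with 1716 genes at an unadjusted p under 0.05. All 35 changes kept their sign in each of these settings.

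The change also went with the base composition and length of the genes. Over the 10100 tested genes with an annotated length, the log2 change had a Spearman correlation of 0.575 with GC content and −0.507 with exon length, as a description across genes that share the same 6 libraries. Within the groups the libraries differed in the same respect, with correlations to GC content, relative to the mean of all libraries, of 0.441, 0.023 and 0.309 in anti-CD36 replicates 1, 2 and 3 and of 0.141, −0.027 and −0.436 in untreated replicates 1, 2 and 3. The genes called higher had a median GC content of 54.5% and a median length of 3749 bases, those called lower 49.9% and 6234 bases, and all genes 49.8% and 4300 bases. When the trend on GC content and length was taken out of each library before the fit, 496 genes passed (4.91% of 10100), 196 higher (1.94%) and 300 lower (2.97%). Of the 35 genes 34 were among them, and Msmo1 was not. The median change over all genes was −0.01 as deposited and 0.01 with the trend removed. Gene groups below are given as deposited and, by their calls, their median or both, with the trend removed. The mitochondrially encoded genes, which had no annotated length, are given as deposited only. A median given once is as deposited and may differ with the trend removed.

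**Figure D1:**
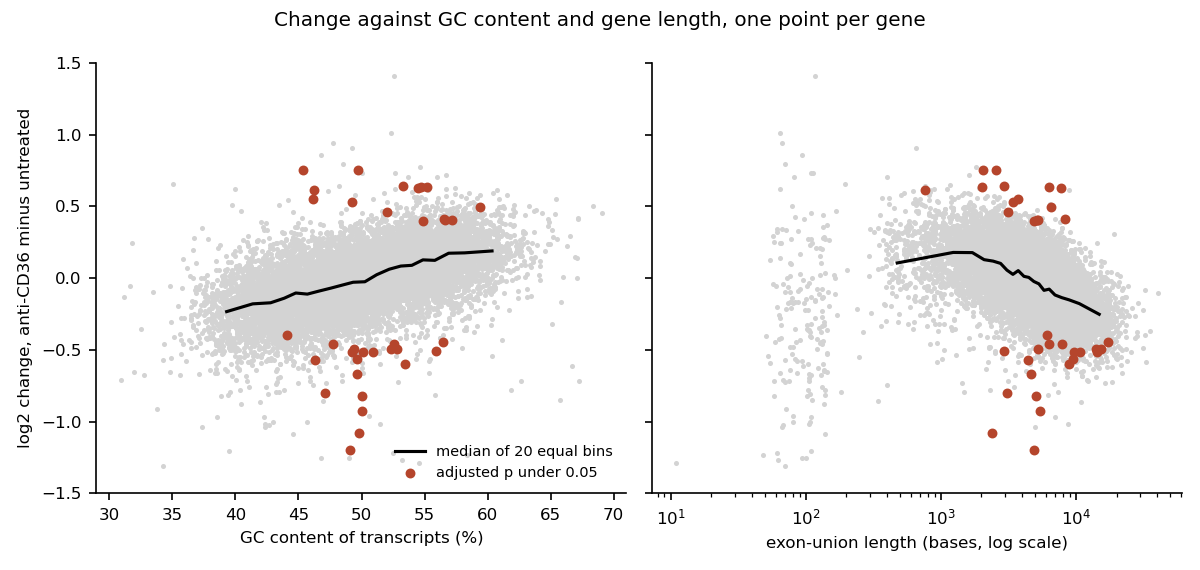
Log2 change between anti-CD36 and untreated cells (vertical axis, log2(FPKM + 1) scale) against GC content in percent (left) and exon-union length in bases on a log axis (right), 1 point per gene for 10100 genes. The black line, the median of 20 bins of equal gene number, climbs with GC content and descends with length over most of the range; the 35 called genes, in red, lie well off it on both sides.

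Scd1 (chromosome 19, 44394455 to 44407879 on GRCm38 in GENCODE M21) had the smallest adjusted p of the table. This stearoyl-CoA desaturase, which puts the double bond into stearate and palmitate, had 17.2, 20.4 and 19.2 FPKM in the 3 anti-CD36 libraries, against 39.4, 47.0 and 48.0 FPKM in the untreated libraries. The highest treated value was well under the lowest untreated one. Its mean was 18.9 ± 1.62 FPKM with anti-CD36 and 44.8 ± 4.69 FPKM untreated (SD, n = 3 each), a log2 change of −1.20 (SE 0.10, adjusted p = 0.000533, limma), with the mean of treated cells 0.422 times that of untreated cells. It rested on at least 2859 fragments in each library, and it stayed called when any 1 of the 12 libraries was left out. Over all the alternative settings its adjusted p ran from 1.25e-05 to 0.066. Scd2, its neighbour on chromosome 19 and the more abundant desaturase here, had 117, 161 and 144 FPKM in anti-CD36 libraries and 235, 277 and 285 FPKM in untreated libraries. It too fell without overlap, by 0.92 on the log2 scale (SE 0.12, adjusted p = 0.0129, limma; 0.000154 to 0.217 over the alternatives). The 2 genes are paralogs, and how fragments shared between them were counted is not stated.

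Acly, which makes cytosolic acetyl-CoA from citrate, was the third gene of fatty acid synthesis to fall, with 45.1, 53.9 and 50.3 FPKM in anti-CD36 libraries and 65.0, 72.4 and 73.5 FPKM in untreated libraries (log2 change −0.49, SE 0.09, adjusted p = 0.0401, limma). In the list of fatty acid synthesis and desaturation these 3 of 16 tested genes were called lower, beside 0.195% of all genes, none was called higher, and the median change was −0.31. With the GC and length trend removed 9 of the 16 were called lower, against 2.97% of all genes, and none higher (median −0.30). Besides Scd1, Scd2 and Acly these were the fatty acid synthase Fasn, the acetyl-CoA carboxylase Acaca, the delta-6 desaturase Fads2, the malic enzyme Me1, the citrate carrier Slc25a1 and the carboxylase regulator Mid1ip1. Me1, a source of NADPH for lipid synthesis, had 24.2, 23.5 and 25.4 FPKM with anti-CD36 and 29.7, 31.2 and 32.4 FPKM untreated, with no overlap (log2 change −0.34, adjusted p = 0.0672, limma). Fasn had means of 27.9 FPKM with anti-CD36 and 35.7 FPKM untreated, without overlap (−0.34, adjusted p = 0.159, limma). Fads1 and Elovl5, which act later on polyunsaturated chains, had overlapping groups and changes of −0.10 each. Acacb and Thrsp were not tested, being below the filter.

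**Figure D2:**
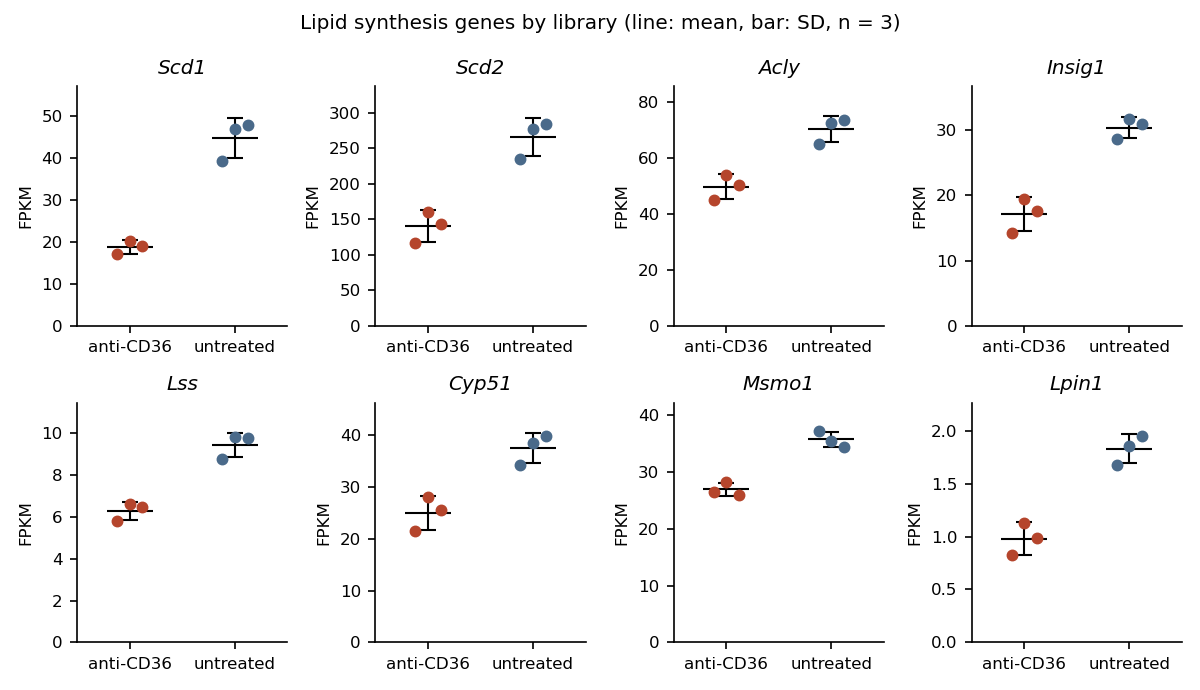
FPKM of 8 called genes of lipid synthesis and its control, 1 point per library, with anti-CD36 libraries on the left and untreated libraries on the right of each panel; the line is the mean and the bar the SD of 3 libraries. In every panel the highest anti-CD36 point lies below the lowest untreated point.

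Genes of cholesterol synthesis lay lower in anti-CD36 cells nearly throughout. Of 21 tested genes 20 had a negative change, the median was −0.36, and Cyp51, Lss and Msmo1 passed the test (3 of 21, against 0.195% of all genes). With the trend removed 13 of 21 were called lower, against 2.97% of all genes, with a median of −0.35 and none higher. The summed level of the list was 417 to 443 FPKM in the anti-CD36 libraries and 557 to 574 FPKM in the untreated libraries. Cyp51, the lanosterol 14-alpha-demethylase, had 21.5, 28.0 and 25.6 FPKM with anti-CD36 and 34.2, 38.4 and 39.8 FPKM untreated (log2 change −0.57, SE 0.10, adjusted p = 0.0422, limma). Lss, which cyclises squalene epoxide to lanosterol, had 5.80, 6.62 and 6.46 FPKM with anti-CD36 and 8.77, 9.79 and 9.76 FPKM untreated (log2 change −0.52, SE 0.08, adjusted p = 0.0314, limma). Msmo1, the C4-methylsterol oxidase, had 26.6, 28.2 and 26.1 FPKM with anti-CD36 and 37.2, 35.6 and 34.5 FPKM untreated (log2 change −0.40, SE 0.07, adjusted p = 0.0401, limma). The 3 genes were without overlap, and Msmo1 did not pass with the trend removed (log2 change −0.23, adjusted p = 0.23; 0.014 to 0.296 over the alternatives).

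Other genes of the pathway had lower values without passing. Sqle, the squalene epoxidase, had 17.7, 23.4 and 21.6 FPKM with anti-CD36 and 24.5, 27.5 and 28.5 FPKM untreated, without overlap (−0.35, adjusted p = 0.141, limma). Hmgcs1, an early synthase of the mevalonate pathway, had 15.7, 22.5 and 19.6 FPKM with anti-CD36 and 24.6, 27.7 and 37.4 FPKM untreated (−0.60, adjusted p = 0.157, limma). The largest change of the list, −0.76, was that of the isopentenyl isomerase Idi1, with 14.3, 17.2 and 13.8 FPKM with anti-CD36 and 24.4, 24.0 and 30.2 FPKM untreated (adjusted p = 0.0595, limma). Ebp, the sterol isomerase, was the only listed gene with a positive change, 0.18, at means of 22.95 FPKM with anti-CD36 and 20.2 FPKM untreated, and its groups overlapped.

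Among genes of sterol uptake and SREBP control, Insig1 changed most. INSIG1, itself a target of SREBP, retains the SCAP and SREBP complex in the endoplasmic reticulum. Its gene had 14.3, 19.4 and 17.6 FPKM in anti-CD36 libraries, against 28.6, 31.6 and 30.8 FPKM in untreated libraries, a log2 change of −0.80 (SE 0.10, adjusted p = 0.0129, limma; 0.000184 to 0.217 over the alternatives). Lpin1, a phosphatidate phosphatase that also acts in the nucleus on SREBP, was low in all libraries, with 0.822, 1.13 and 0.989 FPKM with anti-CD36 and 1.68, 1.85 and 1.95 FPKM untreated (log2 change −0.52, SE 0.08, adjusted p = 0.036, limma). These 2 of 14 tested genes were called lower, against 0.195% of all genes, and none higher (median −0.18). After removal of the trend 5 of 14 were called lower, against 2.97% of all genes, Stard4 and Srebf1 among the others. The sterol carrier Stard4 had means of 13.3 FPKM with anti-CD36 and 21.2 FPKM untreated (−0.62, adjusted p = 0.111, limma). The transcription factor genes themselves differed less: Srebf1 had means of 13.0 FPKM with anti-CD36 and 15.3 FPKM untreated (−0.22, adjusted p = 0.255, limma), and Srebf2 of 27.1 FPKM with anti-CD36 and 30.5 FPKM untreated, with overlapping groups (−0.16, adjusted p = 0.361, limma). Scap lay the other way, with 7.57, 6.88 and 7.71 FPKM with anti-CD36 and 6.09, 6.29 and 4.97 FPKM untreated, without overlap and without passing (0.31, adjusted p = 0.178, limma).

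Promoter sequences are shown for the called genes Insig1, Lss and Cyp51, because genes of this pathway lay lower together. Each is the 250 bases before the RefSeq transcription start on build GRCm38.p6, read 5′ to 3′ on the strand of the gene, with the letters CCAAT or their reverse complement ATTGG in capitals. CCAAT is the box bound by NF-Y, a cofactor of SREBP in sterol gene promoters.
Insig1, plus strand, chr5:28071162-28071411: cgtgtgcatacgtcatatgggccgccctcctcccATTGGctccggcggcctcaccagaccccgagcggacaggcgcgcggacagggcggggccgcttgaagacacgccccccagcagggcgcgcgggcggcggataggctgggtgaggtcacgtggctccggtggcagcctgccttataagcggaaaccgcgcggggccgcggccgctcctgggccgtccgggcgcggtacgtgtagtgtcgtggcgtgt
Lss, plus strand, chr10:76531355-76531604: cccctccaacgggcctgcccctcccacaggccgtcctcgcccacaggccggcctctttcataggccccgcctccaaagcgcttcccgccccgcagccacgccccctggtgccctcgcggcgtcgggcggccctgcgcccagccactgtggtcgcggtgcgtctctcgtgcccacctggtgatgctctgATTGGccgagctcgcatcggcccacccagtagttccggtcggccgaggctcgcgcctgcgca
Cyp51, minus strand, chr5:4104698-4104947: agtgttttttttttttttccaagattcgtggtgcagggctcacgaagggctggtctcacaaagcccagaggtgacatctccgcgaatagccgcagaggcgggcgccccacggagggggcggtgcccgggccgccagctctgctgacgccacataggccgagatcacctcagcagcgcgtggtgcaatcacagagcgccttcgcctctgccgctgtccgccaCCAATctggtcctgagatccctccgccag

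Each of the 3 holds 1 match. Over the list of cholesterol synthesis, 15 of the 16 genes with an entry (93.8%) hold CCAAT on either strand of the 250 bases, Msmo1 among them with 3 matches. The share was 63.6% of 11 genes of sterol uptake and SREBP control, 66.7% of 15 genes of fatty acid synthesis and desaturation, and 37.5% of all 27025 genes with an entry. The set of all genes with an entry was not limited to the 10276 genes tested in these cells. Neither Acly nor Lpin1 holds a match. The sterol element TCACNCCAC, where N is any base, was found in 1 of the 16 genes of cholesterol synthesis (Hmgcs1), in none of the 11 or the 15 of the other lists, and in 1.2% of all genes. Both motifs were searched on both strands and do not overlap in Hmgcs1. They were chosen after the values were seen. A match is a description of the letters and does not show binding.

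Targets of the oxysterol receptor LXR, which drives cholesterol efflux, had no call: of 11 tested genes 0 passed, with 8 negative changes and a median of −0.13. Srebf1 was the only one called with the trend removed (1 of 11 lower, against 2.97% of all genes), when all 11 changes were negative (median −0.17). The efflux transporter Abca1 had 0.178, 0.307 and 0.291 FPKM in anti-CD36 libraries, against 0.414, 0.719 and 1.07 FPKM in untreated libraries (log2 change −0.45, adjusted p = 0.157, limma). Abcg1 had 13.0, 13.9 and 14.2 FPKM with anti-CD36 and 16.0, 16.9 and 15.9 FPKM untreated (−0.23, adjusted p = 0.203, limma), and neither gene overlapped between groups. Mylip, a ubiquitin ligase, had means of 4.04 FPKM with anti-CD36 and 4.72 FPKM untreated, with overlap (−0.19, adjusted p = 0.437, limma).

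The gene of the antibody target, Cd36 (on chromosome 5 from 17781690 to 17888801, GRCm38, GENCODE M21), was barely expressed in either group. It had 0.411, 0.471 and 0.256 FPKM in anti-CD36 libraries, from 56, 51 and 28 fragments, and 0.124, 0.195 and 0.193 FPKM in untreated libraries, from 24, 21 and 25 fragments. The groups did not overlap, but the change was not called (0.23 on the log2 scale, SE 0.14, adjusted p = 0.337, limma); with the trend removed it was (0.40, adjusted p = 0.0233; 0.0202 to 0.707 over the alternatives). Among 10 tested scavenger receptors none was called and the median was 0.02. After removal of the trend 3 of 10 were called higher, against 1.94% of all genes: Cd36, the class A receptor Msr1 and the hyaluronan receptor Cd44. In the list of fatty acid uptake, storage and oxidation 0 of 27 passed (median 0.09). With the trend removed Cd36 was called higher (1 of 27, against 1.94% of all genes) and the acyl-CoA ligase Acsl4 and the dehydrogenase Acadvl lower (2 of 27, against 2.97%). Acsl4 had means of 23.9 FPKM with anti-CD36 and 33.6 FPKM untreated, and Slc27a1, a fatty acid transporter, of 32.1 FPKM with anti-CD36 and 26.8 FPKM untreated, both without overlap.

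The chemokines Cxcl2 and Ccl3 were higher in anti-CD36 cells. Cxcl2 (chromosome 5, 90903871 to 90905938), which attracts neutrophils, had 1.35, 1.22 and 1.30 FPKM in anti-CD36 libraries, from 106, 76 and 82 fragments, against 0.250, 0.386 and 0.442 FPKM in untreated libraries, from 28, 24 and 33 fragments. The groups stood far apart, with a treated mean 3.59 times the untreated one, though at a low level (log2 change 0.75, SE 0.09, adjusted p = 0.0129, limma; 0.000793 to 0.197 over the alternatives). Ccl3, a macrophage inflammatory protein, had 206, 195 and 201 FPKM with anti-CD36 and 144, 133 and 115 FPKM untreated (log2 change 0.62, SE 0.10, adjusted p = 0.036, limma). Its genomic neighbour Ccl4 had 169, 128 and 143 FPKM with anti-CD36 and 94.2, 78.1 and 62.6 FPKM untreated, again without overlap, but missed the threshold (0.91, SE 0.18, adjusted p = 0.0669, limma). In all, 1 of 9 CC chemokines (median 0.29) and 1 of 5 CXC chemokines (median 0.39) were called higher, against 0.146% of all genes, and none lower. Of the 9 CC changes 7 were positive and 2 negative, and the 5 CXC changes were positive.

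Without the trend, 2 of 9 CC chemokines (Ccl3 and Ccl4) and 3 of 5 CXC chemokines (Cxcl2, Cxcl10 and Cxcl14) were called higher, against 1.94% of all genes. Cxcl14 had 4.42, 2.18 and 3.06 FPKM with anti-CD36 and 1.61, 1.75 and 0.955 FPKM untreated, and the interferon-induced Cxcl10 had 1.39, 1.43 and 1.97 FPKM with anti-CD36 and 1.06, 1.05 and 0.811 FPKM untreated. Ccl5, a T cell attractant, had 3.89, 4.18 and 3.63 FPKM with anti-CD36 and 3.16, 2.84 and 2.45 FPKM untreated (log2 change 0.36, adjusted p = 0.135, limma). These 3 genes did not overlap between groups, whereas the monocyte attractant Ccl2 did, at means of 1.78 FPKM with anti-CD36 and 1.48 FPKM untreated. The listed genes Cxcl1, Cxcl3, Cxcl5, Cxcl9 and Ccl20 were among those below the filter. The CC chemokine genes tested are short, with a median length of 1138 bases over the list.

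C5ar1 (chromosome 7, 16246743 to 16259540), the receptor for the complement fragment C5a, had 8.69, 7.63 and 9.07 FPKM in anti-CD36 libraries and 4.85, 4.65 and 4.28 FPKM in untreated libraries. It rose by 0.76 on the log2 scale (SE 0.11, adjusted p = 0.0318, limma, with 0.000879 to 0.195 over the alternatives). Among the tested complement and chemoattractant receptors it alone passed, with or without the trend. The share was 1 of 9 higher, against 0.146% of all genes as deposited and 1.94% with the trend removed. The others of the list, such as the fractalkine receptor Cx3cr1 at means of 40.3 FPKM with anti-CD36 and 39.6 FPKM untreated, had a change of at most 0.22, that of the nucleotide receptor P2ry6. The decoy receptor Ccrl2 stayed under 0.569 FPKM in each of the 6 libraries.

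No inflammatory cytokine of 17 tested passed, 12 had a positive change, and the median was 0.06. Tnf had 65.7, 64.2 and 72.5 FPKM in anti-CD36 libraries against 53.6, 55.5 and 48.4 FPKM in untreated libraries, without overlap (log2 change 0.36, SE 0.10, adjusted p = 0.139, limma). Il18 had 23.2, 25.8 and 25.1 FPKM with anti-CD36 and 19.7, 19.5 and 16.9 FPKM untreated (0.39, adjusted p = 0.066, limma), and Il1rn, the interleukin-1 receptor antagonist, 13.8, 13.7 and 13.8 FPKM with anti-CD36 and 10.9, 11.7 and 9.06 FPKM untreated (0.36, adjusted p = 0.111, limma). In the fit without the trend, Il18 and Tgfb1 were called higher (2 of 17, against 1.94% of all genes). Il1b was at the bottom of detection, 0.110, 0.0870 and 0.172 FPKM with anti-CD36 and 0.0678, 0.0484 and 0.0290 FPKM untreated. The untreated replicate 2 value of Il1b was the mean of the other untreated replicates and no whole number of fragments, so its spread is too small. Nos2, the inducible nitric oxide synthase, overlapped between groups at 3.58 ± 0.198 FPKM with anti-CD36 and 3.45 ± 0.237 FPKM untreated (SD, n = 3 each).

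**Figure D3:**
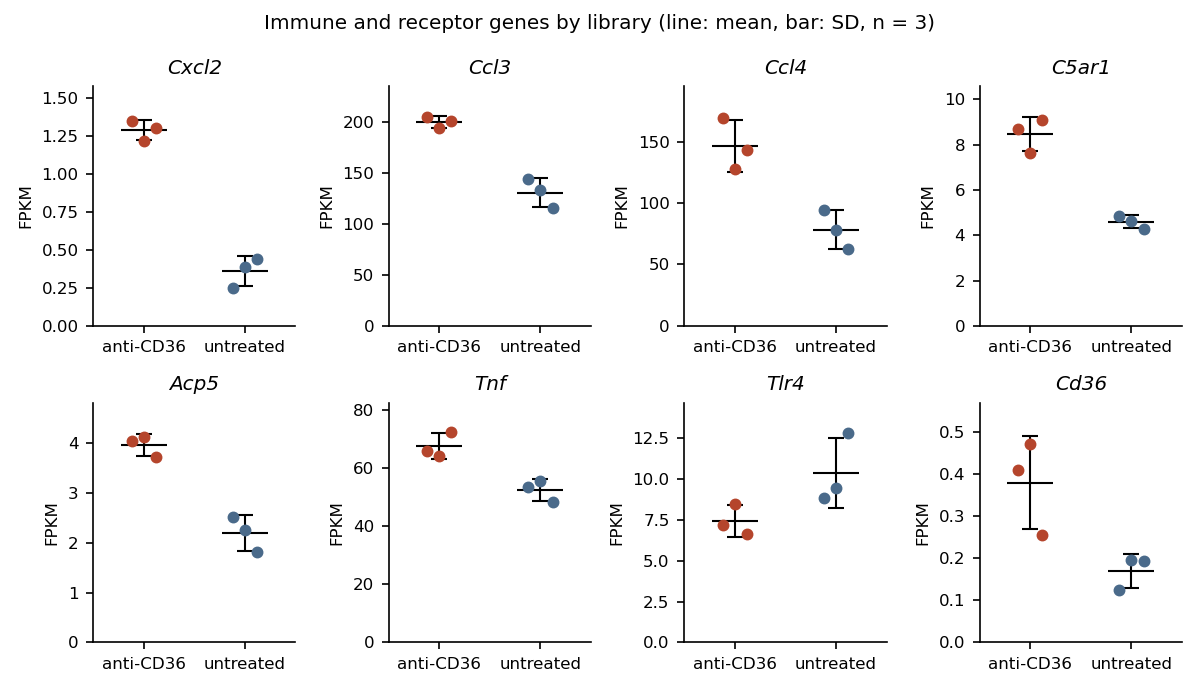
FPKM of 8 immune and receptor genes, 1 point per library, with anti-CD36 libraries on the left and untreated libraries on the right of each panel; the line is the mean and the bar the SD of 3 libraries. Cxcl2, Ccl3, C5ar1 and Acp5 passed the test; Ccl4, Tnf, Tlr4 and Cd36 did not overlap between groups and did not pass.

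The Fc gamma receptors, the other route by which an antibody can reach a macrophage, were measured at low to moderate levels and none passed the test. The activating receptors Fcgr1, Fcgr3 and Fcgr4 overlapped between groups, with means of 27.1, 3.64 and 1.24 FPKM in anti-CD36 cells and 25.8, 3.55 and 1.10 FPKM in untreated cells. The inhibitory receptor Fcgr2b had 1.90, 1.90 and 2.23 FPKM with anti-CD36 and 1.496, 1.82 and 1.72 FPKM untreated, without overlap (log2 change 0.17, adjusted p = 0.37, limma). In the list of 22 receptors and signalling genes 0 passed and the median was 0.08, and with the trend removed the kinase Fgr alone was called higher (1 of 22, against 1.94% of all genes). Fgr had 6.15, 6.42 and 6.87 FPKM with anti-CD36 and 4.94, 5.23 and 4.72 FPKM untreated (0.33, adjusted p = 0.12, limma).

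Toll-like receptors and their adaptors had no call among 20 tested, as deposited or with the trend removed, and 15 of the 20 changes were negative (median −0.12). Tlr4, the LPS receptor, had 7.17, 8.49 and 6.61 FPKM in anti-CD36 libraries and 8.82, 9.43 and 12.8 FPKM in untreated libraries (log2 change −0.42, SE 0.17, adjusted p = 0.226, limma), and Tlr2 had means of 37.9 FPKM with anti-CD36 and 43.3 FPKM untreated (−0.19, adjusted p = 0.256, limma). The co-receptor Cd14 lay the other way, at 639 ± 31.7 FPKM with anti-CD36 and 529 ± 74.5 FPKM untreated (SD, n = 3 each; 0.28, adjusted p = 0.281, limma). These 3 genes did not overlap between groups, a description not set against the share of all genes. With the trend removed the changes were −0.22 for Tlr4, −0.22 for Tlr2 and 0.09 for Cd14. Of 24 NF-kB targets and feedback genes 0 passed (median 0.08), and 0 with the trend removed. Relb had means of 2.25 FPKM with anti-CD36 and 1.64 FPKM untreated, Traf1 of 3.19 FPKM with anti-CD36 and 2.49 FPKM untreated, and Nfkbiz of 1.86 FPKM with anti-CD36 and 2.61 FPKM untreated.

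Interferon-stimulated genes (38 tested, median 0.03) and genes of MHC class I presentation (18 tested, median 0.20) also had no call. The antiviral Oasl1 had 39.2, 30.7 and 34.1 FPKM in anti-CD36 libraries against 27.1, 24.7 and 21.6 FPKM in untreated libraries (log2 change 0.48, adjusted p = 0.113, limma), and the transcription factor Irf7 means of 34.4 FPKM with anti-CD36 and 25.8 FPKM untreated (0.40, adjusted p = 0.183, limma). Once the trend was removed, 4 of 38 were called higher, against 1.94% of all genes, Oasl1, Ifi204 and Xaf1 among them, and none lower. In class I presentation 15 of 18 changes were positive, led by the peptide-loading genes Tap2 and Tapbp at means of 4.59 and 72.8 FPKM with anti-CD36 and 3.38 and 55.4 FPKM untreated. The median of class I presentation was 0.08 with the trend removed, with no gene called. The list has a median GC content of 54.4% and length of 2889 bases.

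Acp5, the tartrate-resistant acid phosphatase of osteoclasts and activated macrophages, was low and higher with the antibody, at 4.05, 4.14 and 3.72 FPKM in anti-CD36 libraries and 2.53, 2.26 and 1.81 FPKM in untreated libraries (log2 change 0.64, SE 0.11, adjusted p = 0.0401, limma; 0.00424 to 0.217 over the alternatives). RAW264.7 is a line that can form osteoclasts, and Acp5 was the only call among the osteoclast markers (1 of 13 higher, against 0.146% of all genes, median 0.06). With the trend removed the proton pump subunit Atp6v0d2 and the transcription factor Nfatc1 were called higher as well (3 of 13 with Acp5, against 1.94% of all genes). Nfatc1 had means of 22.6 FPKM with anti-CD36 and 18.3 FPKM untreated, without overlap (0.29, adjusted p = 0.17, limma), and the protease Mmp9 means of 1.18 FPKM with anti-CD36 and 0.757 FPKM untreated (0.31, adjusted p = 0.168, limma). The summed level of the list, most of it Car2, was 1293 to 1415 FPKM with anti-CD36 and 1274 to 1419 FPKM untreated.

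Lysosomal genes (33 tested, 24 with a positive change, median 0.14) and genes of macrophage identity (23 tested, 18 positive, median 0.13) had no call as deposited. Grn, the progranulin precursor, had 160, 135 and 155 FPKM in anti-CD36 libraries against 112, 120 and 99.7 FPKM in untreated libraries (log2 change 0.44, adjusted p = 0.126, limma), and the cathepsin Ctsl means of 90.7 FPKM with anti-CD36 and 75.4 FPKM untreated (0.26, adjusted p = 0.132, limma). The proton pump subunit Atp6v1a lay the other way, at 53.0 FPKM with anti-CD36 and 74.3 FPKM untreated. After trend removal Grn and Ctsl were called higher (2 of 33, against 1.94% of all genes) and 2 genes lower, Atp6v1a among them (against 2.97%). Of the 23 genes of macrophage identity 0 were called then (median 0.099). The lipid receptor Trem2 had 51.9, 37.6 and 41.7 FPKM with anti-CD36 and 45.2, 39.6 and 30.9 FPKM untreated, with overlap (0.18, adjusted p = 0.523, limma). Cd68 had means of 624 FPKM with anti-CD36 and 499.6 FPKM untreated, and Fcer1g, Tyrobp and Cd52, which are short, overlapped between groups at changes of 0.36, 0.53 and 0.53.

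Among targets of the integrated stress response, which acts through ATF4, Pck2 passed. This mitochondrial form of phosphoenolpyruvate carboxykinase had 6.21, 5.98 and 5.74 FPKM in anti-CD36 libraries and 3.54, 3.32 and 3.65 FPKM in untreated libraries (log2 change 0.63, SE 0.08, adjusted p = 0.0129, limma; 0.000816 to 0.174 over the alternatives). Chac1, which degrades glutathione, had 3.23, 2.98 and 3.37 FPKM with anti-CD36 and 1.94, 1.83 and 1.61 FPKM untreated and missed the threshold (0.59, adjusted p = 0.0669, limma), and the amino acid transporter chain Slc3a2 had means of 43.7 FPKM with anti-CD36 and 31.9 FPKM untreated (0.44, adjusted p = 0.104, limma). All 3 were without overlap. The list had 1 of 34 genes called higher, against 0.146% of all genes, 26 positive changes and a median of 0.15. With the trend removed 5 of 34 were called higher, against 1.94% of all genes: Pck2, Chac1, Slc3a2, the asparagine synthetase Asns and the seryl-tRNA synthetase Sars. Ddit4, an mTORC1 inhibitor, was called lower (1 of 34, against 2.97%). The unfolded protein response list, which covers the other stress pathways of the endoplasmic reticulum, had 0 of 22 called and a median of −0.09. With the trend removed this list had 1 of 21 called lower, Sel1l, against 2.97% of all genes, and a median of −0.10. Its 3 genes of smallest p had lower means with anti-CD36 than untreated: Sel1l at 10.4 FPKM with anti-CD36 and 13.4 FPKM untreated, Dnajb9 at 6.32 FPKM with anti-CD36 and 7.60 FPKM untreated, Hyou1 at 42.3 FPKM with anti-CD36 and 51.2 FPKM untreated.

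In the lists of hypoxia-inducible genes and glycolysis only Ak4 passed as deposited. Ak4, a mitochondrial adenylate kinase, had 19.6, 25.4 and 20.97 FPKM in anti-CD36 libraries, against 32.0, 37.0 and 37.0 FPKM in untreated libraries (log2 change −0.67, SE 0.11, adjusted p = 0.036, limma; 0.000524 to 0.217 over the alternatives). The mitophagy receptor Bnip3 had 48.1, 51.9 and 50.1 FPKM with anti-CD36 and 72.3, 72.4 and 66.5 FPKM untreated, well apart but not past the threshold (−0.48, SE 0.11, adjusted p = 0.1, limma). Vegfa, the angiogenic growth factor, had 8.35, 10.7 and 9.34 FPKM with anti-CD36 and 11.5, 12.2 and 12.5 FPKM untreated (−0.32, adjusted p = 0.131, limma). Of 22 hypoxia genes 1 was called lower, against 0.195% of all genes, and 16 had a negative change (median −0.10). With the trend removed 7 of 21 were called lower, namely Ak4, Hif1a, Ddit4, Bnip3, Bnip3l, Egln1 and Vegfa, against 2.97% of all genes. Of 25 glycolysis genes 0 passed (median −0.11), and 6 with the trend removed, all lower, against 2.97% of all genes, namely Aldoc, Pgam1, Pgk1, Pfkfb3, Pfkl and Hk2. Pfkfb3, which makes the activator of phosphofructokinase, had 5.61, 6.86 and 6.44 FPKM with anti-CD36 and 7.68, 8.95 and 9.85 FPKM untreated (−0.43, adjusted p = 0.124, limma). The hexokinases had changes of opposite sign without passing: Hk2 had means of 22.3 FPKM with anti-CD36 and 28.3 FPKM untreated with overlap, and Hk3 of 17.6 FPKM with anti-CD36 and 14.5 FPKM untreated without.

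The remaining lower genes belong to several cellular functions. Klhl11, a substrate adaptor of cullin ubiquitin ligases, had 2.65, 2.95 and 1.93 FPKM in anti-CD36 libraries and 5.16, 5.64 and 8.76 FPKM in untreated libraries (log2 change −1.08, SE 0.18, adjusted p = 0.0377, limma). Pdpr, a regulatory subunit of pyruvate dehydrogenase phosphatase, had 3.06, 3.99 and 3.34 FPKM with anti-CD36 and 5.46, 6.63 and 8.81 FPKM untreated (−0.82, SE 0.15, adjusted p = 0.0474, limma). The nuclear kinase Hipk2 had 3.75, 3.25 and 3.42 FPKM with anti-CD36 and 5.61, 6.01 and 5.69 FPKM untreated (−0.60, SE 0.08, adjusted p = 0.0129, limma; 0.000773 to 0.217 over the alternatives). Sik2, a salt-inducible kinase, had 2.11, 2.20 and 2.04 FPKM with anti-CD36 and 3.17, 3.61 and 4.08 FPKM untreated (−0.56), and 15.0% of its exon bases also lie in exons of Ppp2r1b on the opposite strand, whose change was −0.08.

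The others fell by smaller amounts, and each had non-overlapping groups. Ep300, a histone acetyltransferase, had means of 5.40 FPKM with anti-CD36 and 8.16 FPKM untreated (log2 change −0.51). The slicing Argonaute Ago2 had 10.1 FPKM with anti-CD36 and 14.6 FPKM untreated (−0.49) and Wdfy3, an adaptor of selective autophagy, 3.78 FPKM with anti-CD36 and 5.74 FPKM untreated (−0.49). Sec24d, a cargo-selecting subunit of the COPII coat, had 5.29 FPKM with anti-CD36 and 7.62 FPKM untreated (−0.46), and the bZIP factor Tef 2.08 FPKM with anti-CD36 and 3.22 FPKM untreated (−0.46). The polycystin gene Pkd1 had 1.08 FPKM with anti-CD36 and 1.84 FPKM untreated (−0.45), and Tmppe, a predicted metallophosphoesterase that shares 5.6% of its exon bases with Glb1, had 1.99 FPKM with anti-CD36 and 3.25 FPKM untreated (−0.51). Ago2, Ep300, Wdfy3 and Pkd1 have exon lengths of 14031 bases or more, where the all-gene trend is downward. After trend removal all 4 passed at smaller changes: −0.30 for Ago2, −0.31 for Ep300, −0.36 for Wdfy3 and −0.37 for Pkd1.

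On the higher side, Angptl2, a secreted angiopoietin-like protein, had 12.4, 13.0 and 13.1 FPKM in anti-CD36 libraries and 8.26, 8.07 and 7.45 FPKM in untreated libraries (log2 change 0.63, SE 0.08, adjusted p = 0.0129, limma; 0.000524 to 0.174 over the alternatives). Odc1, the first enzyme of polyamine synthesis and the most abundant called gene, had 495, 554 and 521 FPKM with anti-CD36 and 365, 374 and 345 FPKM untreated (0.53, SE 0.08, adjusted p = 0.0318, limma). Dhrs3, which reduces retinaldehyde to retinol, had 24.2, 18.9 and 22.1 FPKM with anti-CD36 and 14.6, 13.9 and 12.2 FPKM untreated (0.64, SE 0.11, adjusted p = 0.0401, limma). Hacd2, a dehydratase of very long chain fatty acid elongation, had 21.1, 22 and 23.7 FPKM with anti-CD36 and 14.6, 16.5 and 13.6 FPKM untreated (0.55, SE 0.09, adjusted p = 0.0376, limma). All 4 were separated between groups.

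The other called genes rose by 0.50 or less on the log2 scale. Fam20c, the Golgi kinase of secreted proteins, had means of 5.54 FPKM with anti-CD36 and 3.63 FPKM untreated, Tmem106a, a membrane protein, 8.41 FPKM with anti-CD36 and 5.82 FPKM untreated, and the polycystin relative Pkd1l2 1.31 FPKM with anti-CD36 and 0.733 FPKM untreated. The calcium pump Atp2a3 had 20.02 FPKM with anti-CD36 and 14.9 FPKM untreated and Acap1, an activator of the GTPase activity of Arf6, 5.45 FPKM with anti-CD36 and 3.90 FPKM untreated. The S6 kinase gene Rps6kb2 had 3.29 FPKM with anti-CD36 and 2.24 FPKM untreated, but 23.7% of its exon bases lie in exons of Ptprcap on the opposite strand, and whether counting used strand is not stated. Of the 35 called genes 16 have exon bases in common with another annotated gene and 6 with another protein-coding gene, which for Ago2, Cyp51, Pkd1 and Tmppe came to between 1.6% and 5.6% of their exon bases.

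Immediate early genes and NRF2 targets had no call. Of 26 immediate early genes 18 had a positive change (median 0.12), led by the ERK phosphatase Dusp5 at means of 2.74 FPKM with anti-CD36 and 1.52 FPKM untreated (log2 change 0.57, adjusted p = 0.0669, limma). Zfp36, which destabilises cytokine mRNAs, had means of 13.6 FPKM with anti-CD36 and 9.85 FPKM untreated, and the nuclear receptor Nr4a2 of 1.32 FPKM with anti-CD36 and 0.816 FPKM untreated, also without overlap. In the fit without the trend, 3 of 26 were called higher (against 1.94% of all genes) and 2 lower (against 2.97%), and the median was 0.01. NRF2 targets, which respond to oxidative stress, had a median of 0.07 over 23 genes. Me1 was the only call with the trend removed (1 of 23 lower, against 2.97% of all genes). The cystine transporter Slc7a11 (2.42 FPKM with anti-CD36, 3.67 FPKM untreated) and the thioredoxin reductase Txnrd1 (43.0 FPKM with anti-CD36 and 50.0 FPKM untreated) overlapped between groups.

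No gene of protein synthesis, respiration or the cell cycle passed as deposited. Ribosomal protein genes had 30 of 32 positive changes and a median of 0.23, with 0 called and 0 at an unadjusted p under 0.05, and their summed level ran from 19150 to 23800 FPKM in anti-CD36 libraries and from 14860 to 22030 FPKM in untreated libraries, with overlap. They are short, with a median length of 2030 bases, and their median was 0.09 with the trend removed. Nuclear genes of oxidative phosphorylation had 34 of 37 positive changes, 0 called and a median of 0.16, which was 0.09 with the trend removed. The complex III subunit Uqcrc2 was then called lower (1 of 37, against 2.97% of all genes). The 13 mitochondrially encoded mRNAs had a median of 0.13 and no call, with ND6 at means of 1783 FPKM with anti-CD36 and 1453 FPKM untreated. DNA replication genes had 0 of 33 called (median 0.07), and with the trend removed the licensing factor Cdt1 and the polymerase subunit Pold1 were called higher (2 of 33, against 1.94% of all genes). Mitosis genes had 0 of 30 called either way, and their median was −0.11 as deposited and −0.02 with the trend removed. In that list Cenpf, at an exon length of 15433 bases, had means of 7.19 FPKM with anti-CD36 and 10.1 FPKM untreated, and Aurkb of 42.03 FPKM with anti-CD36 and 37.1 FPKM untreated.

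**Figure D4:**
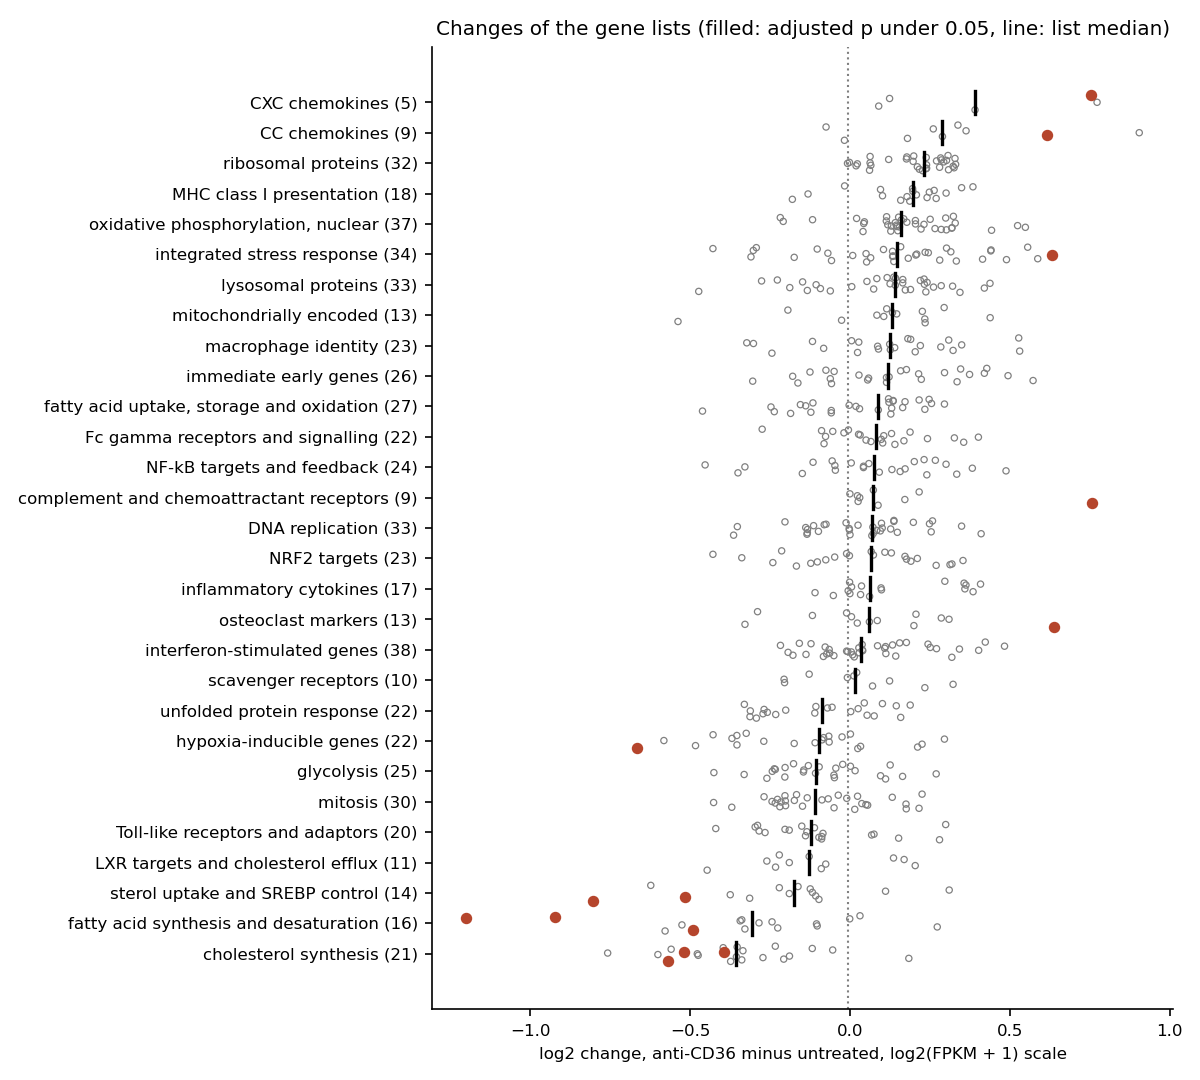
Log2 change between anti-CD36 and untreated cells for every tested gene of 29 lists (rows, with the number of tested genes), sorted by the median of the list; filled red points passed an adjusted p of 0.05, black lines are list medians and the dotted line is the median of all genes. The 3 lists at the foot, of lipid synthesis and sterol control, hold 8 of the called points, all on the lower side.

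The 35 genes were then read in LPS+anti-CD36 against LPS cells, a comparison that shares none of its 6 libraries with the one above, though the same fit supplies its spread. There 1590 genes passed (15.5%), 754 higher (7.34%) and 836 lower (8.14%). The change with LPS also went with base composition and length, with Spearman correlations of 0.387 with GC content and −0.502 with exon length over 10100 genes. These have the signs found without LPS (0.575 and −0.507). Shared signs in the values as deposited therefore cannot be read as a fully independent second look. All 20 genes lower with the antibody alone were also lower and called in LPS+anti-CD36 cells, and all 15 higher genes were higher, 9 of them called. With the trend removed all 20 lower and all 15 higher genes still had these signs, and 17 of 20 and 9 of 15 were called. The share of all genes called with LPS in that fit was not counted, and the shares above are those as deposited. Scd1 had 10.3, 10.8 and 9.25 FPKM in LPS+anti-CD36 libraries and 21.4, 23.2 and 23.03 FPKM in LPS libraries (log2 change −1.08, adjusted p = 3.63e-05, limma), close to its change of −1.20 without LPS. Insig1 had means of 15.6 FPKM with LPS+anti-CD36 and 29.3 FPKM with LPS (−0.87), and Cxcl2, at a far higher level, of 1036 FPKM with LPS+anti-CD36 and 424.5 FPKM with LPS (1.28). The 6 higher genes not called there were Dhrs3, Fam20c, Odc1, Pck2, Pkd1l2 and Tmem106a. Over the 15 higher genes the median change was 0.33 with LPS and 0.55 without, and over the 20 lower genes −0.55 and −0.52; the genes were chosen on the values without LPS.

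Whether the antibody change differed with LPS present was tested as an interaction, the change in LPS-treated cells minus that in cells without LPS, which 132 of all genes passed (1.28%). Of the 35 genes Ak4 and Lpin1 passed. Ak4 had 11.6, 13.1 and 13.8 FPKM in LPS+anti-CD36 libraries and 37.5, 42.0 and 39.7 FPKM in LPS libraries, a change of −1.56 that exceeded the one without LPS by −0.89 (SE 0.15, adjusted p = 0.0127, limma). Lpin1 had 0.784, 0.683 and 0.797 FPKM with LPS+anti-CD36 and 2.86, 3.17 and 2.85 FPKM with LPS, a change of −1.17 and an interaction of −0.66 (SE 0.11, adjusted p = 0.0147, limma). The interaction did not pass for the other 33 genes, which does not show that their changes were alike. For Scd1 the interaction was 0.12 (SE 0.14), for Scd2 −0.63 (SE 0.16, adjusted p = 0.127, limma) and for Cxcl2 0.53 (SE 0.13, adjusted p = 0.116, limma). Net of the trend, Dhrs3, Odc1, Pck2 and Scd2 passed beside Ak4 and Lpin1. The share of all genes passing the interaction net of the trend was not counted. In the hypoxia list 21 of 22 genes were called lower in LPS+anti-CD36 against LPS cells, beside 8.14% of all genes, and 1 of 22 in anti-CD36 against untreated cells, beside 0.195% of all genes. The difference between these counts was not tested.

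**Figure D5:**
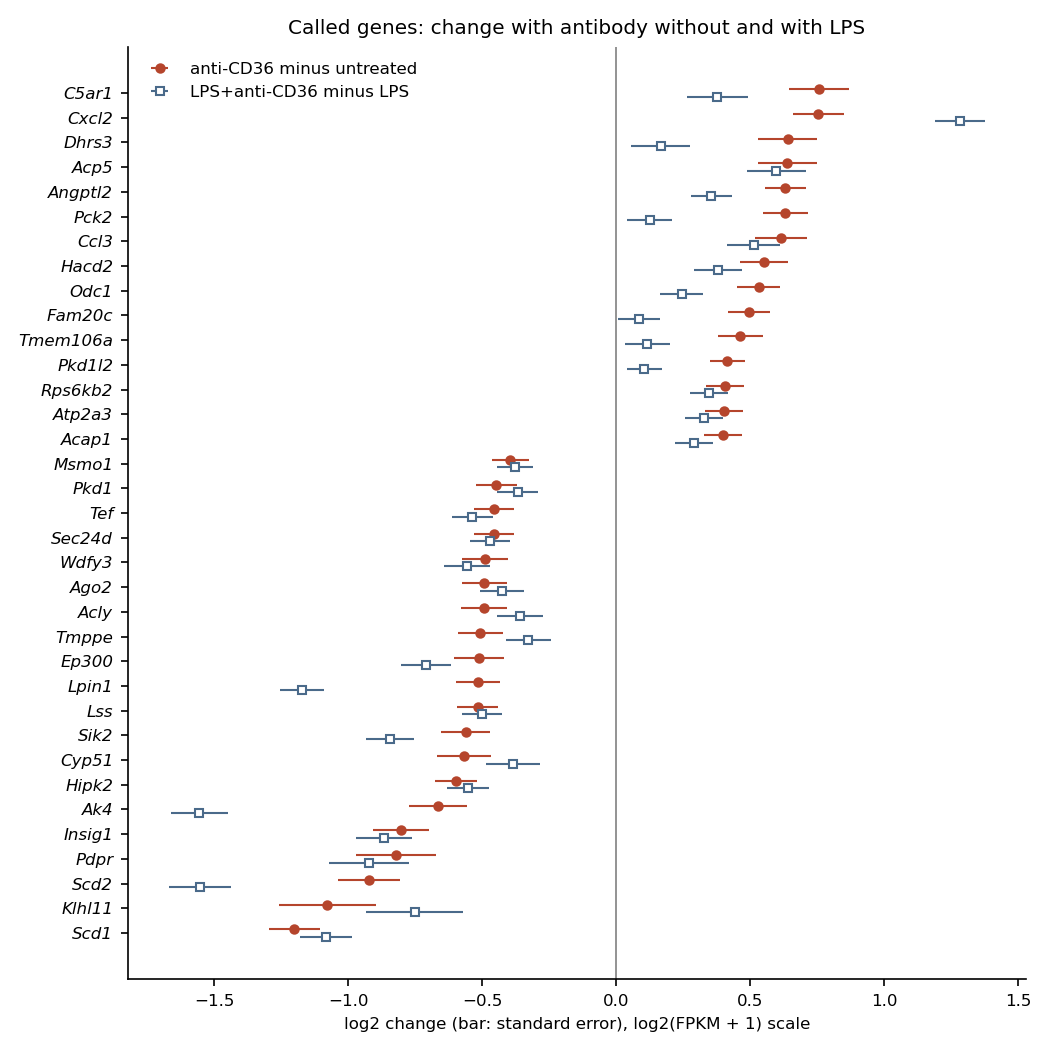
Log2 change of the 35 called genes (rows) with anti-CD36 against untreated cells (red circles) and with LPS+anti-CD36 against LPS cells (open blue squares); bars are standard errors from limma and the vertical line marks no change. All pairs of points lie on the same side of the line; Ak4 and Lpin1 have a larger negative change with LPS, and the 6 higher genes that were not called there are nearer to 0 than the same genes without LPS.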

How the data were processed

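RNA of 12 RAW264.7 libraries in 4 groups of 3 was sequenced, and the FPKM values deposited by the authors in 1 gene table were used. HISAT2 2.0.5 and the builds mm39 and hg38 are named, per the submitters' processing notes, without their roles; counter, annotation, strand setting and filters are not given in the sources used here. FPKM steps gave the fragments per library, and 94.4% to 94.6% of the values above 0 were whole fragments at the GENCODE M21 exon length within 0.005 fragments. Libraries held 30070450 to 54137810 fragments. Counting error is not small for short or low genes: the called gene Acp5 rested on 133 to 312 fragments, and Cxcl2 on 24 to 106, in the 6 libraries without LPS.

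Repeated symbols (82 entries) were reduced to the entry of highest mean. Il6 was left out, because its values without LPS are those of Gm10874. Values were analysed as log2(FPKM + 1), so changes of low genes are understated. limma 3.58.1 (R 4.3.3) was fitted to 4 group means over 12 libraries with an intensity trend and Benjamini-Hochberg adjustment over 10276 genes. A run on simulated data drew independent noise for each library and held no GC or length trend. It therefore cannot show how the fit behaves with such a trend or with correlated libraries. Trend removal regressed each library on splines (5 degrees of freedom) of GC content and log length. Gene coordinates are those of GENCODE M21 on GRCm38, and promoters are from RefSeq.

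Genes named are all called genes, fixed genes and the 3 of smallest p per list. Members, lists and tests were chosen with earlier results of these data known. Alternatives were another pseudocount, filter, scaling, variance model or set of libraries, the trend removed, a replicate block and each library left out. The labels pair no libraries by replicate number. Same-numbered anti-CD36 and untreated libraries had correlated deviations in replicate 1 (0.658) but not in replicates 2 (−0.317) and 3 (−0.034). Same-numbered untreated and LPS libraries were correlated in replicates 1 (0.784) and 3 (0.811) but not in replicate 2 (−0.236). Differently numbered libraries could be correlated too: anti-CD36 replicate 2 had 0.69 with untreated replicate 3. Array weights did not converge and were not used. Values of some genes of the lists are not reported here.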

Additional observations from a re-analysis of the deposited data

Results flagged for a closer look

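By the interaction term of limma, the effect of the antibody differed between cells with and without LPS for 8 of 123 named genes. These 123 are the called genes, the fixed genes and those of smallest p in their list. Of all 10276 genes 132 passed (1.28%), and the named genes are not a random sample of them. The difference, the log2 change with LPS minus that without, was −0.892 for Ak4 and −0.657 for Lpin1, the 2 that had also changed with the antibody alone. It was −1.98 for Bnip3, which had means of 14.8 FPKM in LPS+anti-CD36 cells and 85.4 FPKM in LPS cells beside 50.1 FPKM in anti-CD36 cells and 70.4 FPKM in untreated cells. For Vegfa it was −0.741 and for Pfkfb3 −0.749, with changes of −1.06 and −1.17 in the presence of LPS. For Nos2 it was −0.798, with means of 110.3 FPKM in LPS+anti-CD36 cells and 188 FPKM in LPS cells and overlapping groups without LPS. For Chac1 it was −0.881, the change being −0.29 with LPS and 0.59 without. For Il1b it was 0.865, with 597 FPKM in LPS+anti-CD36 cells and 306 FPKM in LPS cells, and without LPS the gene lay near 0 with the value of untreated replicate 2 set at the mean of the other untreated replicates.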

How the results depend on the processing

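Against untreated cells 15 genes were higher and 20 lower with anti-CD36. The counts were 8 and 17 with a pseudocount of 5, 19 and 26 with 0.1, 11 and 5 with TPM scaling, and 16 and 27 with median-of-ratios scaling. They were 196 and 300 with the GC and length trend removed and 535 and 629 with the replicate block. Both the block and the trend removal gave 446 and 581. The labels give no pairing by replicate number, and same-numbered libraries were correlated in some pairs only. With only the 6 anti-CD36 and untreated libraries 0 and 0 passed in limma (1716 at an unadjusted p under 0.05), and 18 and 28 when the trend was also removed, a setting added after seeing the data. Leaving out 1 library gave 0 to 61 higher and 1 to 70 lower. The interaction, 2 of the 35 genes, gave 4 with a pseudocount of 5, 1 with an FPKM of at least 5, 1 with TPM scaling, 6 with the trend removed, 4 with the replicate block, 8 with the block and the trend removed, and 1 to 3 without single libraries. The cause of these shifts was not tested. For the interaction, the share of all genes was counted only in the fit that gave 2 of the 35. The 35 called genes kept their sign in every setting run. Of the other named genes Nos2 and Fcgr1 kept it in 20 of 24 settings and Fcgr3 in 18 of 23, all close to 0 and none called. Over the named genes 379 values lost the threshold and 144 gained it. Genes with few fragments are limited by depth: Cd36 had 21 to 56 per library, and the called genes Cxcl2 and Acp5 had as few as 24 and 133.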
